A study of Mus musculus with 22 samples.

Results

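Stress-inducible protein-folding genes of the cytosol, the mitochondria and the endoplasmic reticulum (ER) were followed in spinal cords of mice with and without a mutation in tyrosyl-tRNA synthetase, the enzyme that charges tRNA with tyrosine. One set holds 16 genes of the cytosolic and mitochondrial heat shock system (Hsp70, Hsp110, Hsp90, their J-protein and exchange-factor partners, small heat shock proteins, the mitochondrial chaperonin and the factor Hsf1), and the other holds 21 genes of the ER, comprising its chaperones, its protein-degradation machinery and the sensors of its stress response. The 37 genes were taken by name from the 38924 gene IDs measured, and all 37 were found by ID and passed the filter on low counts. They were compared across 22 RNA-seq libraries of whole spinal cord from mice aged 7 months on a B6N;B6J strain background: 10 libraries labelled E196K/E196K for Yars (HOM), 6 labelled E196K/+ (HET) and 6 labelled wild type (WT). The labels mention no drug, injury or other treatment, and never state that each library is from its own animal, so a p-value here speaks of library-to-library spread and no more. A single base change in Yars cannot be checked from counts per gene.

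Heat shock proteins bind unfolded protein in the cytosol, and their genes are switched on when free unfolded protein draws chaperones away from Hsf1, which then binds heat shock elements in their promoters. In the ER the chaperone Hspa5 (BiP) plays the corresponding part: when it is drawn to unfolded protein, the sensors Ern1 (IRE1), Atf6 and PERK are set free, and Atf6 and spliced Xbp1 switch on ER chaperone genes through ER stress elements. Motor neurons are known for a high threshold for the heat shock response, and mutant chaperones such as HSPB1 cause inherited neuropathy in people, as mutant tyrosyl-tRNA synthetase does.

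The promoters of the members were searched for both kinds of element. The sets were chosen by name as genes of these responses, so a split of the motifs between them is a description. RefSeq windows (build GRCm38.p6, 250 bases before to 50 after an annotated start) were found for 29 of the 37 members, 11 cytosolic or mitochondrial and 18 ER. A pair of inverted heat shock units, GAANNTTC or TTCNNGAA, stood in 9 of the 11 heat shock windows, in 0 of the 18 ER windows and in 17.0% of the 27025 genes in the table. Units repeated so that 3 stand in a row occurred in 4 of the 11 (Hsph1, Chordc1, Hspd1 and Hspe1), in 0 of the 18 and in 0.662% of all genes. The ER stress element (CCAAT, 9 bases, CCACG, searched on both strands) showed the opposite split: 0 of the 11, 8 of the 18 (Hspa5, Hsp90b1, Dnajc3, Calr, Canx, Pdia6, Creld2 and Syvn1) and 0.137% of all genes. Genes with several annotated starts count once, by any of their windows, and a match to these letters is not evidence that a factor binds there. The bases upstream of Hspa1a and Hspa5, the inducible Hsp70 and its ER counterpart, carry these motifs, with the motif bases in capitals; chr17:34972157-34972406 lies on the minus strand and chr2:34771840-34772089 on the plus strand.
Hspa1a: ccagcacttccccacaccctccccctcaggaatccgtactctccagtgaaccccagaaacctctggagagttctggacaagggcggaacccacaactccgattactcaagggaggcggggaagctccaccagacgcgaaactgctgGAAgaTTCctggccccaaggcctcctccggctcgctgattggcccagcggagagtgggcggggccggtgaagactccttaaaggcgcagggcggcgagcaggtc
Hspa5: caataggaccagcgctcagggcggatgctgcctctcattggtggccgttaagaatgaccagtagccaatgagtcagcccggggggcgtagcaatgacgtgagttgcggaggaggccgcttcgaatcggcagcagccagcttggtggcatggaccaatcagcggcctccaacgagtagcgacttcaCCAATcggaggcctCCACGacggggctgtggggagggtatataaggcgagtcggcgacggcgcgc

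The Hspa1a dyad sits 104 to 97 bases before the start and the Hspa5 element 65 to 47 bases before it. Hspa1b, the neighbouring copy of Hspa1a, differs from it at 3 of the 250 upstream bases and has the dyad at the same place. Short stretches around the motif in other members whose values come up below let the 2 kinds of site be compared, in the plus or minus orientation of the gene and with the motif again in capitals.
Hsph1 (chr5:149636350-149636381, minus strand): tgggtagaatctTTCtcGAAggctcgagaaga
Hspb1 (chr5:135887790-135887821, plus strand): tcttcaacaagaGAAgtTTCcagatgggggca
Hspe1 (chr1:55088047-55088088, plus strand): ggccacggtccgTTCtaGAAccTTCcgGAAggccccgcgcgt
Hsp90b1 (chr10:86705626-86705668, minus strand): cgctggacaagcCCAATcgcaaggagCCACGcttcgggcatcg
Calr (chr8:84847063-84847105, minus strand): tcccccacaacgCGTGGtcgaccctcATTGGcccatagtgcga
Pdia6 (chr12:17266479-17266521, plus strand): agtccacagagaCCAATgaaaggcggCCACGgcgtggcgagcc
Creld2 (chr15:88819508-88819550, plus strand): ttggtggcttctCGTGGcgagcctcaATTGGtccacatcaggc

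Hspb1 and Hsph1 have 2 units at the site shown, and Hspe1 has 4 in a row. The Hspe1 site is also the Hspd1 site, since those genes lie head to head and both windows hold the same bases, chr1:55088059-55088076. The counts above are of genes and not of separate sites, so this site is counted under both names. Hspa1a and its near copy Hspa1b are likewise counted each. Calr and Creld2 carry the ER element on the other strand, where it reads CGTGG, 9 bases, ATTGG.

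**Figure D1:**
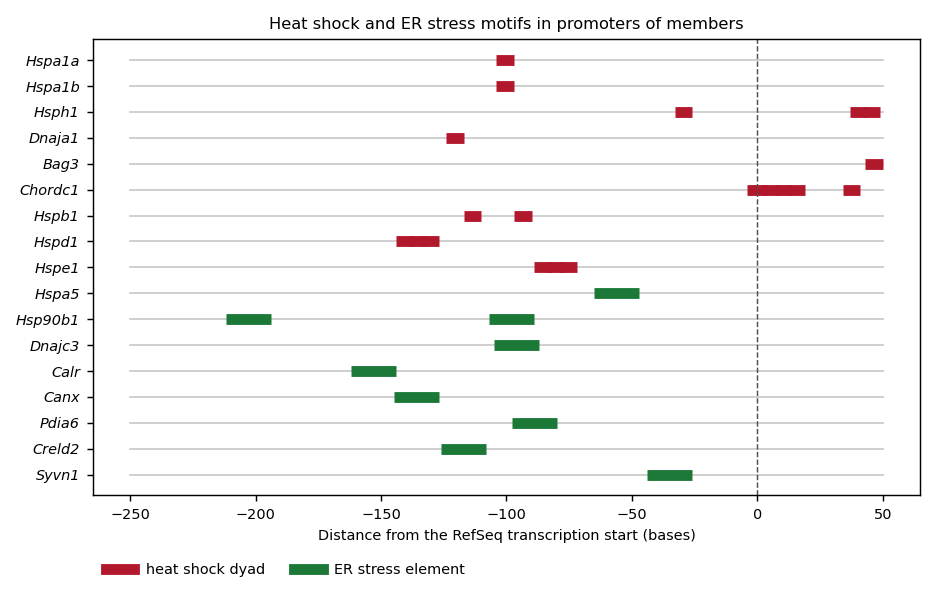
Positions of heat shock dyads (red) and ER stress elements (green) along the RefSeq windows of the 17 members that have one; the x axis is the distance from the annotated start in bases, and for genes with several starts the first window with a motif is drawn. Red marks are seen in 9 heat shock members and green marks in 8 ER members, and no member has both.

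Depth ran from 24448477 to 42805931 counts per library. The markers of spinal cord neurons, oligodendrocytes, astrocytes and microglia looked up for this tissue were all found. HOM 3 stood apart in markers of other tissue: its summed peripheral nerve markers reached 2720 CPM, against 67.9 in the next HOM library, its fibroblast and meningeal markers 494 CPM, against 72.9, its skeletal muscle markers 12.6 CPM, against 1.40, and its blood markers 1610 CPM, against 878. Without HOM 3 the count of members called between genotypes was 0 in each comparison. For the title prefix of the libraries, taken up below, it was 16 of 37, against 15 of 37 with all libraries. The share of all genes called for the prefix without HOM 3 is not given here.

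No member was called between genotypes. At an adjusted p below 0.05 in edgeR's quasi-likelihood test, 0 of 37 members passed in HOM against WT, where 0.0943% of the 16974 genes tested did, and 0 of 37 in HET against WT, where 0% did. In HOM against HET 0 of 37 passed, with 0.106% of all genes. Unadjusted p below 0.05 was reached by 2 members in HOM against WT (Herpud1 and Ern1), by 2 in HET against WT (Dnajb1 and Bag3) and by 1 in HOM against HET (Bag3), while the same was true of 5.91%, 3.41% and 8.80% of all genes. DESeq2, limma voom and limma on the deposited TPM also called 0 members in each comparison. Ranges of single libraries did not overlap for 0 of 37 members in each comparison, beside 0.124% of all genes in HOM against WT, 0.141% in HET against WT and 0.230% in HOM against HET.

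The group medians in HOM against WT lay near 0. The median log2 fold change in HOM against WT was -0.006 over the heat shock members, 7 of 16 of them above 0, and 0.007 over the ER members, 12 of 21 of them above 0, beside 0.007 over all genes. In HET against WT the medians were 0.057 (14 of 16 above 0) and 0.028 (15 of 21 above 0), beside 0.003. HOM against HET gave -0.077 for the heat shock members, with 0 of 16 above 0, and -0.004 for the ER members, with 10 of 21 above 0, beside 0.005; this comparison shares its HET libraries with the previous one. With the title prefix of the libraries, taken up after the single genes, as a covariate, the heat shock medians were 0.0063 in HOM against WT, 0.017 in HET against WT and -0.0078 in HOM against HET. The ER medians were then 0.0096, -0.017 and 0.03, so that 3 of the 6 medians had the other sign. With the level of Xist as a covariate, the ER median had the other sign in each of the 3 comparisons. The heat shock median kept its sign there. Xist is also uneven over the genotypes, with levels given below beside Hspa1b. The 95% intervals of the fold change stayed within 1.2-fold either way in HOM against WT for 12 of 16 heat shock members (the others being Hspa1a, Hspa1b, Dnajb1 and Chordc1) and for 17 of 21 ER members (the others being Sdf2l1, Creld2, Herpud1 and Xbp1). In HET against WT 9 of 16 and 17 of 21 intervals stayed within it, and in HOM against HET 8 of 16 and 18 of 21.

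**Figure D2:**
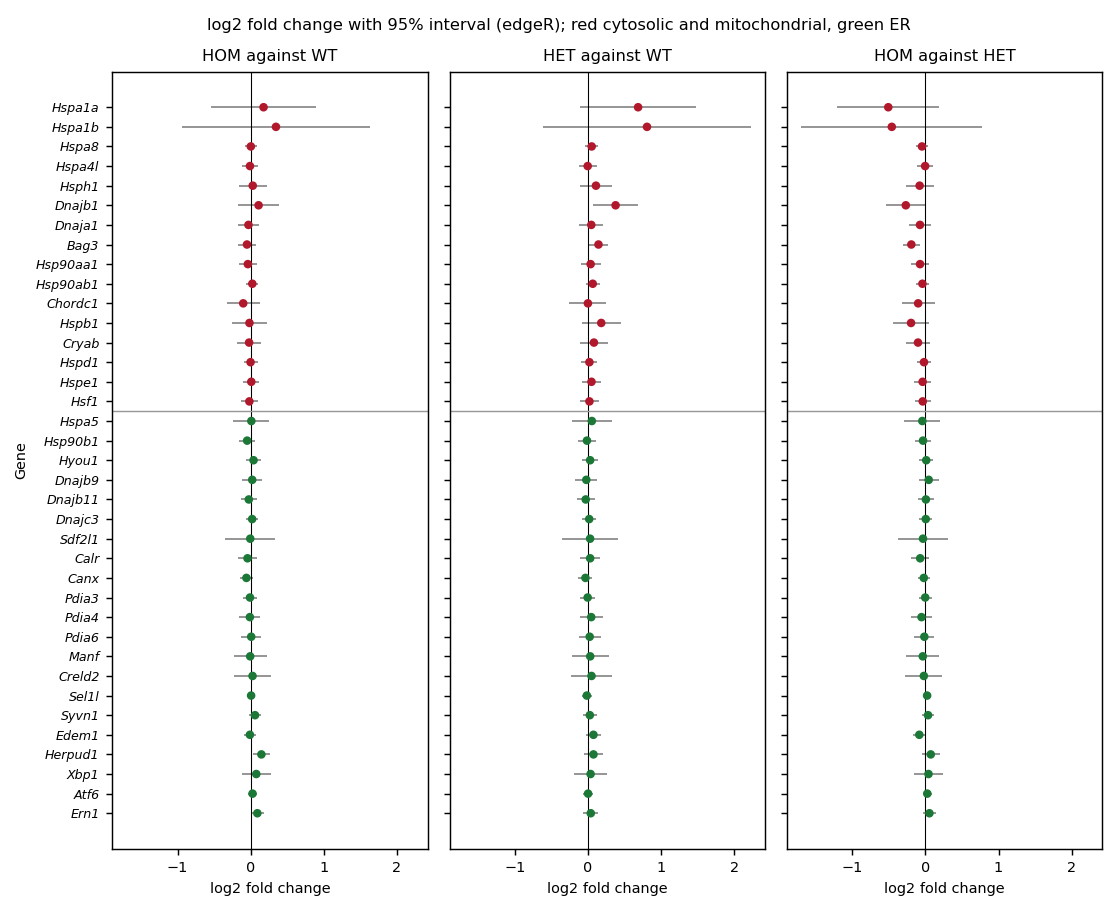
log2 fold change of the 37 members, with bars for the 95% interval of the edgeR fit, in HOM against WT (left), HET against WT (middle) and HOM against HET (right); red, cytosolic and mitochondrial heat shock members; green, ER members. Hspa1a and Hspa1b have the widest intervals, and most other members lie near 0.

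Levels per transcript length place the members over a wide range in WT cords. Hspa8, the constitutive Hsp70, stood at 1675 ± 92.6 TPM (SD, n = 6), followed by the Hsp90 genes Hsp90ab1 at 1159 ± 56.7 TPM and Hsp90aa1 at 860 ± 140 TPM and by the small heat shock gene Cryab at 333.3 ± 25.1 TPM. The highest ER members were Calr at 287.1 ± 30.9 TPM, Canx at 265.0 ± 16.3 TPM, Hsp90b1 at 242.6 ± 24.4 TPM and Hspa5 at 222.5 ± 44.4 TPM, whose means lie within the sum of neighbouring SDs. The inducible Hsp70 genes were among the lowest, Hspa1a at 10.5 ± 4.80 TPM and Hspa1b at 7.10 ± 6.26 TPM, with the sensor Ern1 lowest at 5.18 ± 0.535 TPM. All further levels are CPM, counts scaled to library size, which follow 1 gene across libraries and do not rank genes. In bulk tissue, fewer cells of a type and less RNA per cell cannot be told apart.

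Among the Hsp70 genes the constitutive form was steady and the inducible forms were not. Hspa8 ran at 1915 to 2293 CPM (median 2150) in HOM cords, 2039 to 2294 (median 2178) in HET cords and 1954 to 2278 (median 2128) in WT cords. For Hspa8, the log2 fold change was 0.0023 (SE 0.0396, adjusted p = 0.994) for HOM against WT and 0.05 (SE 0.0442, adjusted p = 1) for HET against WT. Hspa8 stood at -0.048 (SE 0.0395, adjusted p = 0.755) for HOM against HET. Hspa1a, induced by stress, ran at 9.60 to 38.5 CPM (median 13.3) in HOM cords, 11.1 to 37.7 (median 16.8) in HET cords and 9.18 to 25.1 (median 11.6) in WT cords. The groups overlapped widely, and in each genotype the highest library stood well above the median. For Hspa1a, the log2 fold change was 0.18 (SE 0.344, adjusted p = 0.924) for HOM against WT and 0.68 (SE 0.38, adjusted p = 1) for HET against WT. Hspa1a stood at -0.51 (SE 0.333, adjusted p = 0.681) for HOM against HET. The 95% interval for Hspa1a ran from -0.54 to 0.90 in HOM against WT and from -0.11 to 1.48 in HET against WT. With the title prefix in the fit Hspa1a stood at 0.37 for HET against WT and 0.0068 for HOM against HET, where its direction turned. Prefix 40412 is carried by 5 of 6 HET and 2 of 10 HOM libraries. With the level of Xist in the fit Hspa1a stood at 0.28 for HET against WT and -0.28 for HOM against HET. Hspa1b ran at 3.64 to 48.2 CPM (median 9.99) in HOM cords, 5.37 to 39.0 (median 10.7) in HET cords and 4.73 to 28.3 (median 6.05) in WT cords. For Hspa1b, the log2 fold change was 0.35 (SE 0.616, adjusted p = 0.914) for HOM against WT and 0.81 (SE 0.678, adjusted p = 1) for HET against WT. Hspa1b stood at -0.46 (SE 0.592, adjusted p = 0.861) for HOM against HET. The direction of Hspa1b in HET against WT turned, to -0.019, with the level of Xist as a covariate, and in HOM against HET it turned, to 0.25, with the title prefix. Xist, transcribed from the inactive X, had a median of 424 CPM in HOM, 0.359 CPM in HET and 515 CPM in WT libraries, and the labels give no sex. The spread between libraries (edgeR's gene-wise dispersion) of Hspa1b and Hspa1a lay at the 99.1 and 97.8 percentile of all genes tested, against 32.3 for Hspa8. Their longest coding transcripts match at 87.2% of 2898 aligned positions, gaps counted, so expected counts may be split between the copies. Summing the pair gave a log2 fold change of 0.25 (SE 0.46, adjusted p = 0.92) for HOM against WT. The sum stood at 0.74 (SE 0.508, adjusted p = 1) for HET against WT and -0.49 (SE 0.446, adjusted p = 0.786) for HOM against HET.

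None of the partners that reload or direct Hsp70 was called. Dnajb1, the J protein that stimulates inducible Hsp70, ran at 38.8 to 71.8 CPM (median 46.1) in HOM cords, 43.1 to 73.9 (median 52.6) in HET cords and 39.1 to 53.8 (median 42.8) in WT cords. Its highest HET libraries exceed every WT library, and the lowest do not. For Dnajb1, the log2 fold change was 0.11 (SE 0.133, adjusted p = 0.872) for HOM against WT and 0.38 (SE 0.148, adjusted p = 1) for HET against WT. Dnajb1 stood at -0.27 (SE 0.131, adjusted p = 0.576) for HOM against HET. Within title prefix 40412, Dnajb1 lay at 49.6 and 71.8 CPM in the 2 HOM libraries, 48.8 to 73.9 CPM in the 5 HET libraries and 43.6 to 53.8 CPM in the 3 WT libraries. Over all libraries its log2 fold change in HET against WT was 0.25 with the title prefix and 0.21 with Xist in the fit, and in HOM against HET -0.083 and -0.18. Bag3, an exchange factor that hands misfolded clients to autophagy, ran at 32.5 to 44.5 CPM (median 37.6) in HOM cords, 38.7 to 47.3 (median 43.4) in HET cords and 36.6 to 43.1 (median 38.9) in WT cords. HOM and HET ranges overlapped between 38.7 and 44.5 CPM. For Bag3, the log2 fold change was -0.051 (SE 0.0584, adjusted p = 0.867) for HOM against WT and 0.14 (SE 0.0652, adjusted p = 1) for HET against WT. Bag3 stood at -0.19 (SE 0.0581, adjusted p = 0.306) for HOM against HET. With the title prefix in the fit Bag3 stood at 0.096 for HET against WT and -0.12 for HOM against HET. With Xist in the fit these values were 0.073 and -0.16. Unadjusted p for Bag3 in HOM against HET was 0.00281, and within prefix 40412 it averaged 41.9 CPM in HOM, 44.3 CPM in HET and 40.4 CPM in WT libraries. Hsph1, an Hsp110 exchange factor, ran at 235 to 379 CPM (median 309) in HOM cords, 269 to 343 (median 324) in HET cords and 245 to 337 (median 296) in WT cords, and the 3 ranges overlapped over most of their length. For Hsph1, the log2 fold change was 0.028 (SE 0.092, adjusted p = 0.958) for HOM against WT and 0.11 (SE 0.103, adjusted p = 1) for HET against WT. Hsph1 stood at -0.08 (SE 0.0917, adjusted p = 0.841) for HOM against HET. The other members of this kind, Hspa4l and Dnaja1, had log2 fold changes between -0.075 and 0.044 in the 3 comparisons, with the smallest adjusted p at 0.793.

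None of the Hsp90 genes or their co-chaperone was called. Hsp90aa1, the inducible form, ran at 1143 to 1446 CPM (median 1272) in HOM cords, 1262 to 1486 (median 1329) in HET cords and 1194 to 1516 (median 1260) in WT cords. For Hsp90aa1, the log2 fold change was -0.039 (SE 0.0587, adjusted p = 0.9) for HOM against WT and 0.035 (SE 0.0657, adjusted p = 1) for HET against WT. Hsp90aa1 stood at -0.074 (SE 0.0587, adjusted p = 0.74) for HOM against HET. Hsp90ab1, the constitutive form, ran at 1277 to 1538 CPM (median 1389) in HOM cords, 1328 to 1513 (median 1422) in HET cords and 1260 to 1474 (median 1352) in WT cords. For Hsp90ab1, the log2 fold change was 0.022 (SE 0.041, adjusted p = 0.917) for HOM against WT and 0.064 (SE 0.0458, adjusted p = 1) for HET against WT. Hsp90ab1 stood at -0.042 (SE 0.0409, adjusted p = 0.799) for HOM against HET. With the title prefix in the fit that last value turned to 0.018. Chordc1, an Hsp90 co-chaperone, ran at 49.3 to 72.2 CPM (median 59.5) in HOM cords, 56.7 to 81.0 (median 62.5) in HET cords and 53.0 to 85.2 (median 60.0) in WT cords. For Chordc1, the log2 fold change was -0.10 (SE 0.109, adjusted p = 0.858) for HOM against WT and -0.002 (SE 0.122, adjusted p = 1) for HET against WT. Chordc1 stood at -0.1 (SE 0.109, adjusted p = 0.827) for HOM against HET. In each of the 3 genes the lowest and the highest library of a genotype differed by more than any genotype mean did.

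Small heat shock proteins hold unfolded proteins in a form that can be refolded. Hspb1 ran at 13.7 to 20.5 CPM (median 16.9) in HOM cords, 16.4 to 25.3 (median 19.0) in HET cords and 11.6 to 22.4 (median 17.6) in WT cords. For Hspb1, the log2 fold change was -0.017 (SE 0.117, adjusted p = 0.984) for HOM against WT and 0.18 (SE 0.13, adjusted p = 1) for HET against WT. Hspb1 stood at -0.20 (SE 0.116, adjusted p = 0.641) for HOM against HET. Cryab, abundant in oligodendrocytes and astrocytes, ran at 137 to 223 CPM (median 176) in HOM cords, 169 to 210.1 (median 192) in HET cords and 162 to 206 (median 184) in WT cords. For Cryab, the log2 fold change was -0.022 (SE 0.0804, adjusted p = 0.967) for HOM against WT and 0.08 (SE 0.09, adjusted p = 1) for HET against WT. Cryab stood at -0.10 (SE 0.0803, adjusted p = 0.739) for HOM against HET. Its highest HOM value was that of HOM 3, the library with markers of other tissue. By CPM, HOM 3 was also the highest HOM library for Ern1 and the lowest for Hspa8, Bag3, Hspd1, Canx and Sel1l. The part of other tissue in these values was not tested. Cryab overlaps Hspb2 on the other strand, and the sources used here do not state whether counting used strand. Hspd1, the mitochondrial chaperonin Hsp60, ran at 186 to 219 CPM (median 199) in HOM cords, 189 to 222 (median 202) in HET cords and 184 to 225 (median 195) in WT cords. For Hspd1, the log2 fold change was -0.0015 (SE 0.0468, adjusted p = 0.997) for HOM against WT and 0.018 (SE 0.0524, adjusted p = 1) for HET against WT. Hspd1 stood at -0.02 (SE 0.0468, adjusted p = 0.925) for HOM against HET. Its partner Hspe1 (Hsp10), which overlaps it, had log2 fold changes from -0.039 to 0.047. Hsf1, the factor that drives the heat shock response and whose activity is set mainly after transcription, ran at 19.3 to 23.6 CPM (median 22.4) in HOM cords, 19.3 to 24.4 (median 23.2) in HET cords and 20.2 to 24.3 (median 22.2) in WT cords. For Hsf1, the log2 fold change was -0.018 (SE 0.0543, adjusted p = 0.953) for HOM against WT and 0.019 (SE 0.0608, adjusted p = 1) for HET against WT. Hsf1 stood at -0.037 (SE 0.0544, adjusted p = 0.879) for HOM against HET.

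**Figure D3:**
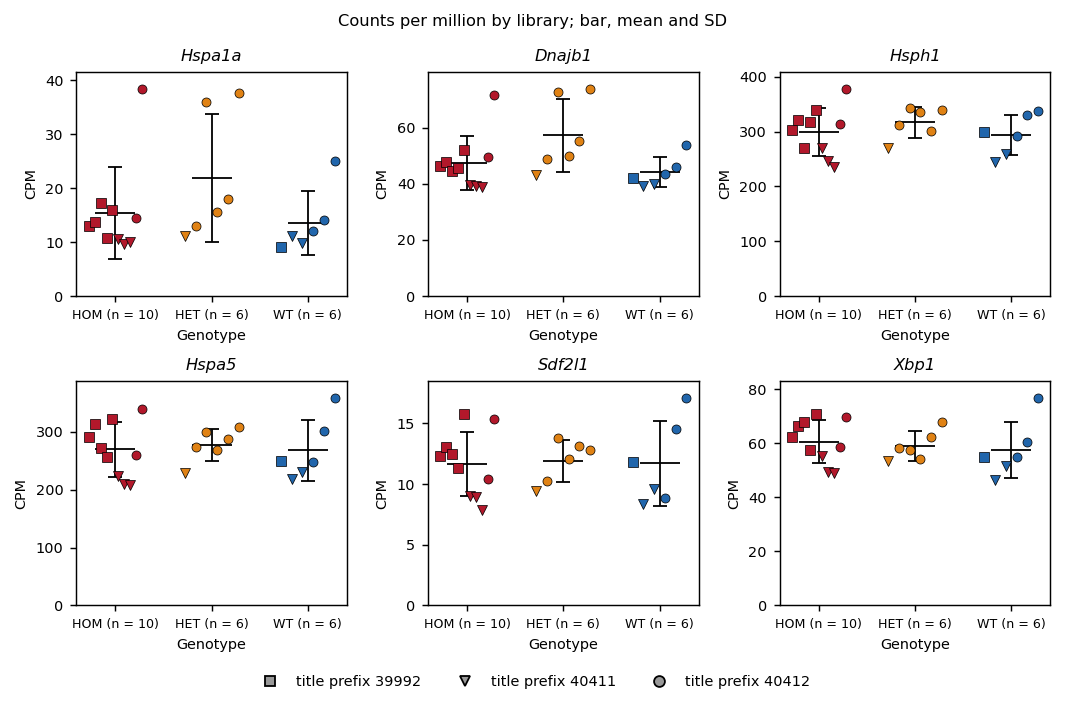
CPM of 3 heat shock members (top) and 3 ER members (bottom) in every library by genotype, HOM left, HET middle and WT right; the shape gives the title prefix, the horizontal bar the mean and the whiskers the SD. Genotypes overlap in all 6 genes, and the libraries with prefix 40411 (triangles) lie toward the low end of each genotype. In HET this is 1 library. For Hspa1a the lowest WT library is WT 1, with prefix 39992.

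None of the ER chaperones was called between genotypes. Hspa5, the Hsp70 of the ER and the usual readout of ER stress, ran at 208 to 339 CPM (median 266) in HOM cords, 229 to 308 (median 280.0) in HET cords and 219 to 359 (median 249) in WT cords. HOM and WT cords covered nearly the same range. For Hspa5, the log2 fold change was 0.0091 (SE 0.118, adjusted p = 0.992) for HOM against WT and 0.052 (SE 0.132, adjusted p = 1) for HET against WT. Hspa5 stood at -0.043 (SE 0.118, adjusted p = 0.94) for HOM against HET. Hsp90b1 (GRP94), the Hsp90 of the ER, ran at 317 to 391 CPM (median 352) in HOM cords, 343 to 379.8 (median 363) in HET cords and 314 to 416 (median 351) in WT cords. For Hsp90b1, the log2 fold change was -0.048 (SE 0.054, adjusted p = 0.864) for HOM against WT and -0.015 (SE 0.0605, adjusted p = 1) for HET against WT. Hsp90b1 stood at -0.033 (SE 0.054, adjusted p = 0.893) for HOM against HET. The third large chaperone, Hyou1, an exchange factor for Hspa5, had log2 fold changes of 0.039, 0.028 and 0.011 in HOM against WT, HET against WT and HOM against HET.

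J proteins and their partner bring clients to Hspa5. Dnajb9, a target of spliced Xbp1, ran at 40.5 to 51.7 CPM (median 44.6) in HOM cords, 36.9 to 52.2 (median 44.2) in HET cords and 38.0 to 52.5 (median 44.5) in WT cords. For Dnajb9, the log2 fold change was 0.021 (SE 0.065, adjusted p = 0.954) for HOM against WT and -0.024 (SE 0.0728, adjusted p = 1) for HET against WT. Dnajb9 stood at 0.045 (SE 0.0652, adjusted p = 0.879) for HOM against HET. Sdf2l1, a partner of the J protein Dnajb11, ran at 7.82 to 15.8 CPM (median 11.8) in HOM cords, 9.47 to 13.8 (median 12.4) in HET cords and 8.39 to 17.1 (median 10.7) in WT cords. It had the highest dispersion of the ER members, at the 89.7 percentile. For Sdf2l1, the log2 fold change was -0.0058 (SE 0.164, adjusted p = 0.997) for HOM against WT and 0.028 (SE 0.184, adjusted p = 1) for HET against WT. Sdf2l1 stood at -0.034 (SE 0.165, adjusted p = 0.971) for HOM against HET. Dnajb11 and Dnajc3 lay between -0.032 and 0.020. Canx, a lectin chaperone that holds glycoproteins in the ER, ran at 425 to 474 CPM (median 452) in HOM cords, 434 to 504 (median 449) in HET cords and 437 to 542 (median 456) in WT cords. For Canx, the log2 fold change was -0.058 (SE 0.0416, adjusted p = 0.819) for HOM against WT and -0.036 (SE 0.0466, adjusted p = 1) for HET against WT. Canx stood at -0.022 (SE 0.0417, adjusted p = 0.908) for HOM against HET. On log2 TPM, with either pseudocount, Canx in HOM against WT had the other sign, at 0.0035. The other lectin, Calr, and the disulfide isomerases Pdia3, Pdia4 and Pdia6 had log2 fold changes between -0.072 and 0.043 in the 3 comparisons.

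Manf, an ER protein that is secreted when ER calcium or folding fails, ran at 32.7 to 51.6 CPM (median 42.0) in HOM cords, 35.9 to 49.1 (median 43.2) in HET cords and 34.8 to 54.1 (median 37.6) in WT cords. For Manf, the log2 fold change was -0.0069 (SE 0.108, adjusted p = 0.993) for HOM against WT and 0.029 (SE 0.121, adjusted p = 1) for HET against WT. Manf stood at -0.036 (SE 0.108, adjusted p = 0.945) for HOM against HET. Creld2, another secreted ER protein, had log2 fold changes from -0.022 to 0.047. The degradation genes take misfolded protein out of the ER. Herpud1, a part of that machinery induced by ER stress, ran at 67.1 to 87.9 CPM (median 75.9) in HOM cords, 64.7 to 81.2 (median 70.9) in HET cords and 62.5 to 82.2 (median 66.0) in WT cords. HOM cords had the highest median, and the 3 ranges overlapped. For Herpud1, the log2 fold change was 0.15 (SE 0.0583, adjusted p = 0.815) for HOM against WT and 0.074 (SE 0.0651, adjusted p = 1) for HET against WT. Herpud1 stood at 0.073 (SE 0.0582, adjusted p = 0.741) for HOM against HET. Its unadjusted p in HOM against WT, 0.0191, was the smallest among the members in that comparison.

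Syvn1, the ubiquitin ligase of the pathway, ran at 46.0 to 54.0 CPM (median 49.5) in HOM cords, 45.3 to 51.2 (median 48.8) in HET cords and 43.3 to 53.1 (median 46.3) in WT cords. For Syvn1, the log2 fold change was 0.06 (SE 0.0406, adjusted p = 0.819) for HOM against WT and 0.024 (SE 0.0454, adjusted p = 1) for HET against WT. Syvn1 stood at 0.035 (SE 0.0407, adjusted p = 0.838) for HOM against HET. Edem1, which trims sugars of doomed glycoproteins, ran at 29.3 to 36.0 CPM (median 32.8) in HOM cords, 33.2 to 36.1 (median 35.5) in HET cords and 30.9 to 35.8 (median 33.0) in WT cords. For Edem1, the log2 fold change was -0.01 (SE 0.0427, adjusted p = 0.97) for HOM against WT and 0.074 (SE 0.0477, adjusted p = 1) for HET against WT. Edem1 stood at -0.084 (SE 0.0426, adjusted p = 0.588) for HOM against HET. Sel1l, the adaptor of Syvn1, was among the steadiest members, with dispersion at the 6.9 percentile and log2 fold changes from -0.017 to 0.023.

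None of the sensors and factors was called either, and gene counts do not show splicing of Xbp1 or cleavage of Atf6. Ern1, the sensor that splices Xbp1, ran at 16.6 to 18.8 CPM (median 17.9) in HOM cords, 15.3 to 18.9 (median 17.0) in HET cords and 16.0 to 18.2 (median 16.4) in WT cords. For Ern1, the log2 fold change was 0.091 (SE 0.0438, adjusted p = 0.815) for HOM against WT and 0.037 (SE 0.049, adjusted p = 1) for HET against WT. Ern1 stood at 0.054 (SE 0.0438, adjusted p = 0.744) for HOM against HET. Xbp1 itself ran at 48.9 to 70.7 CPM (median 60.5) in HOM cords, 53.4 to 68.0 (median 57.9) in HET cords and 46.6 to 76.8 (median 54.8) in WT cords. For Xbp1, the log2 fold change was 0.077 (SE 0.097, adjusted p = 0.876) for HOM against WT and 0.035 (SE 0.108, adjusted p = 1) for HET against WT. Xbp1 stood at 0.042 (SE 0.097, adjusted p = 0.924) for HOM against HET. Atf6, the membrane-bound factor freed by cleavage, ran at 58.5 to 64.2 CPM (median 61.2) in HOM cords, 57.6 to 63.0 (median 59.8) in HET cords and 56.5 to 62.5 (median 60.9) in WT cords and had the lowest dispersion of the members, at the 4 percentile. For Atf6, the log2 fold change was 0.026 (SE 0.0292, adjusted p = 0.865) for HOM against WT and 0.0003 (SE 0.0326, adjusted p = 1) for HET against WT. Atf6 stood at 0.025 (SE 0.0292, adjusted p = 0.838) for HOM against HET.

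The genes around the members were read from lists chosen with earlier results of these data known. Of 44 other cytosolic and mitochondrial chaperones, 42 were tested and 0 were called in any genotype comparison (unadjusted p below 0.05 for 1 in HOM against WT, 2 in HET against WT and 4 in HOM against HET); the smallest p in HOM against WT were those of Hspa9, the mitochondrial Hsp70, with a log2 fold change of 0.089 (SE 0.0256, adjusted p = 0.515), and Hspb8, a small heat shock gene, with -0.11 (SE 0.0561, adjusted p = 0.815). Of 40 other ER folding and degradation genes 0 were called (unadjusted p below 0.05 for 2, 1 and 2) in any genotype comparison, and Txndc5, a disulfide isomerase, stood at 0.097 (SE 0.0449, adjusted p = 0.815) in HOM against WT. Among the cytosolic and mitochondrial chaperones, the smallest p in the other comparisons went to Stub1, an Hsp70-bound ubiquitin ligase, at 0.088 and Cct7, a chaperonin subunit, at 0.06 in HET against WT, and Hspa12b at 0.21 and Hspa9 at 0.079 in HOM against HET. Among the ER genes these were the glucosidase Mogs at 0.13 and Derl3 at -0.43 in HET against WT, and Mogs at -0.12 and the isomerase P4hb at 0.05 in HOM against HET.

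The third branch of the ER stress response runs through PERK and is shared with other kinases that phosphorylate eIF2. Of 11 genes of this branch, 3 were called higher in HOM against WT, 0 in HET against WT and 1 in HOM against HET. The shares of all genes called in either direction were 0.0943%, 0% and 0.106%. This list too was chosen with earlier results of these data known, so its counts beside these shares are a description. Fold changes above 0, called or not, were seen for 10, 7 and 10 of the 11 genes. Chac1, a glutathione-degrading enzyme, lay at 8.15 to 12.5 CPM (median 10.04) in HOM cords. It lay at 5.81 to 7.39 (median 6.68) in HET cords and 6.23 to 7.69 (median 6.94) in WT cords. HOM cords were thus apart from both, while ranges were apart for 0.124% of all genes in HOM against WT and 0.230% in HOM against HET. Chac1 rose by 0.55 (SE 0.0757, adjusted p = 0.000359) on the log2 scale for HOM against WT and by 0.60 (SE 0.0762, adjusted p = 7.03e-05) for HOM against HET. Atf4, the transcription factor of this branch, lay at 81.9 to 97.8 CPM (median 91.6) in HOM cords, 79.1 to 89.5 (median 86.0) in HET cords and 74.3 to 82.8 (median 76.4) in WT cords, a log2 difference of 0.23 (SE 0.0383, adjusted p = 0.00461) for HOM against WT. Sesn2, a stress-induced inhibitor of the growth kinase mTORC1, lay at 21.2 to 29.0 CPM (median 24.0) in HOM cords, 19.9 to 21.4 (median 20.4) in HET cords and 17.9 to 21.4 (median 20.5) in WT cords. HOM and WT cords overlapped at the edge of their ranges for both Atf4 and Sesn2. Sesn2 rose by 0.28 (SE 0.0545, adjusted p = 0.0285) in HOM against WT. Unadjusted p below 0.05 was reached by 6, 2 and 5 of the 11 genes in HOM against WT, HET against WT and HOM against HET, and the median log2 fold changes were 0.23, 0.01 and 0.13. In HET against WT the smallest p were those of Atf4 at 0.15 (SE 0.0425, adjusted p = 1) and Nupr1, a stress-induced chromatin protein, at -0.52 (SE 0.221, adjusted p = 1), and Nupr1 stood at 0.96 (SE 0.199, adjusted p = 0.0516) in HOM against HET. The PERK gene itself, Eif2ak3, stood at 0.032 (SE 0.0374, adjusted p = 0.867) in HOM against WT.

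**Figure D4:**
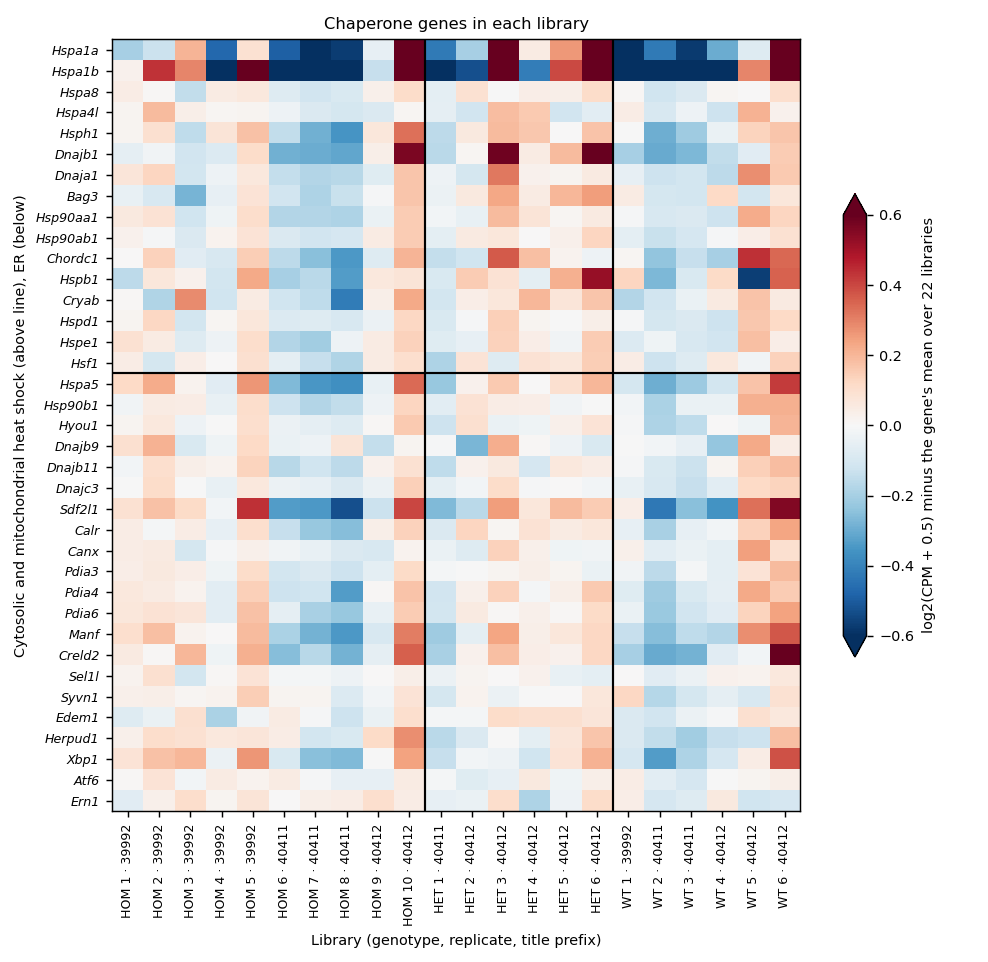
log2(CPM + 0.5) of each member less its mean over the 22 libraries, colour scale capped at 0.6 either way; rows are genes, heat shock above the line and ER below it, and columns are libraries, HOM, HET and WT from left to right and by title prefix within a genotype. Whole columns are red or blue in both groups, and HOM 10, HET 3, HET 6 and WT 6 are red in the rows of Hspa1a and Hspa1b.

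Libraries differed in both groups at once. A score per library, the mean over members of log2 CPM less the gene's mean, had an SD between libraries of 0.2 in HOM, 0.21 in HET and 0.18 in WT cords for the heat shock members and 0.11, 0.07 and 0.14 for the ER members. The genotype means of the heat shock score were -0.03 in HOM, 0.10 in HET and -0.05 in WT cords, and those of the ER score 0.00, 0.01 and -0.02. HOM 10, HET 3 and HET 6 had the highest heat shock scores, 0.38, 0.35 and 0.34, and WT 6 the next at 0.25. The lowest were HOM 8 at -0.30, HOM 7 at -0.27 and WT 2 at -0.21. HET 6 was also the library with the fewest counts, 24448477, and WT 2 that with the most, 42805931. Genes with a count numbered 20800 in HOM 10, 20897 in HET 3, 20771 in HET 6 and 20924 in WT 6. They numbered 21705 in HOM 8, 21479 in HOM 7 and 21722 in WT 2. Not every library followed this order: HET 5, with 20804 such genes, scored 0.09, and HOM 3, with 21603, scored -0.02. The part of depth in the scores was not tested. The ER score ran from -0.18 in WT 2 to 0.21 in WT 6. HOM 10, HET 3 and HET 6 also stood apart in the difference of the scores, with the heat shock score above the ER score by 0.22, 0.27 and 0.27, while the other libraries lay between -0.15 and 0.06. The mean of that difference was -0.03 ± 0.10 in HOM, 0.09 ± 0.14 in HET and -0.03 ± 0.05 in WT libraries (SD, n = 10, 6 and 6), given as a description with no test.

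**Figure D5:**
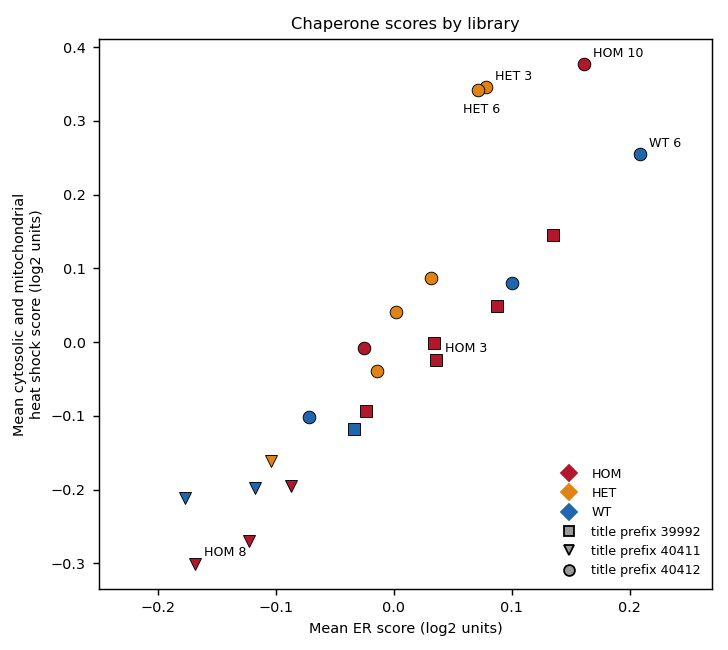
Heat shock score against ER score (both in log2 units) for each library; colour gives the genotype and shape the title prefix. Prefix 40411 (triangles) fills the lower left for all 3 genotypes, and HOM 10, HET 3 and HET 6 lie above the line of the others.

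The scores moved with the first part of the library titles, a number (39992, 40411 or 40412) that the labels do not explain. It is unevenly spread over the genotypes: prefix 39992 has 5 HOM, 0 HET and 1 WT libraries, 40411 has 3, 1 and 2, and 40412 has 2, 5 and 3. The prefix was tested with genotype in the fit, after its effect on the members had been seen. By that F test over the 3 prefixes 15 of 37 members passed, 4 heat shock (Hspa8, Hsph1, Hsp90ab1 and Hsf1) and 11 ER (Hspa5, Hsp90b1, Hyou1, Dnajb11, Sdf2l1, Calr, Pdia4, Pdia6, Manf, Creld2 and Xbp1), which is 40.5% of the members beside 1.93% of all genes tested. The count changed with the libraries and with the unit. It was 5 without WT 2, 6 without HOM 7 or HOM 8 and 9 without HOM 1, HOM 6 or HOM 10. On the deposited TPM it was 2, in HOM and WT libraries only 3 and in the 10 HOM libraries alone 0. The shares of all genes called in these settings are not given here. Fewer calls over all genes were therefore not told apart from a change in the members, here and for the prefix pairs below.

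Of the 3 pairs of prefixes, the widest median differences were between prefixes 40412 and 40411. There 17 members were called, all of them higher in 40412, 5 of 16 heat shock and 12 of 21 ER, beside 1.33% of all genes in either direction and 0.854% higher. The median log2 difference was 0.197 for heat shock members, 16 of 16 above 0, and 0.194 for ER members, 20 of 21 above 0, beside 0.001 for all genes. Hsph1 lay at 293 to 379 CPM (median 333) in 40412 and 235 to 271 CPM (median 253) in 40411, with no overlap, and its difference was 0.37 (SE 0.0541, adjusted p = 0.00107). Hspa5 lay at 248 to 359 CPM (median 293) in 40412 and 208 to 231 CPM (median 221) in 40411, again with no overlap, a difference of 0.43 (SE 0.0781, adjusted p = 0.00788). Calr lay at 283 to 338 CPM (median 302) in 40412 and 239.9 to 276 CPM (median 255) in 40411, a difference of 0.25 (SE 0.0409, adjusted p = 0.00373). In the HOM libraries alone the differences were 0.47 (SE 0.0995, adjusted p = 0.189) for Hsph1, 0.49 (SE 0.116, adjusted p = 0.251) for Hspa5 and 0.30 (SE 0.0585, adjusted p = 0.165) for Calr. The Hspa1a libraries did not overlap either, at 12.1 to 38.5 CPM (median 16.8) in 40412 and 9.60 to 11.1 CPM (median 10.2) in 40411, but the difference of 1.07 (SE 0.286, adjusted p = 0.077) was not called. Ranges of 40412 and 40411 libraries did not overlap for 7 of 16 heat shock and 4 of 21 ER members, beside 0.807% of all genes. Without HOM 10 the count of members called was 5, without WT 2 it was 7, without HOM 7 it was 10 and without HOM 8 it was 11. It was 2 on the deposited TPM, 5 in HOM and WT libraries only and 0 in HOM libraries alone.

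Members that were not called for the prefix include Dnajb9, Ern1 and Atf6, with differences of -0.0035 (SE 0.0719, adjusted p = 0.997), 0.039 (SE 0.0475, adjusted p = 0.832) and 0.035 (SE 0.03, adjusted p = 0.727) between 40412 and 40411. In 40411 against 39992, 4 members were called, all lower (Hsph1, Hspa5, Dnajb11 and Calr), beside 1.16% of all genes in either direction and 0.471% lower. That count was 0 without any one of HOM 2, HOM 5, HOM 7 and HOM 8, 1 without HOM 6 or WT 2, 2 without WT 1, HOM 1, HOM 9, HET 5 or HET 6 and 7 without WT 6. DESeq2 called 10 members there, and limma on the deposited TPM called 0. In 40412 against 39992, 0 members were called, beside 0.0707% of all genes. Unadjusted p below 0.05 was reached there by 4 of 37 members and by 7.76% of all genes. Of the 42 other cytosolic and mitochondrial chaperones 5 were called for the prefix, beside 1.93% of all genes. These were Hspa12a, Hspa12b and the Hsp90 partners Ahsa1, Fkbp4 and Stip1. Of the 40 other ER genes 0 were called, with unadjusted p below 0.05 for 4.

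Markers of cell types also differed between prefixes, and not all in 1 direction. In 40411 against 39992, 2 of 4 astrocyte and 2 of 8 spinal cord neuron markers lay above 0. Of these lists 0 were called, with unadjusted p below 0.05 for 2 and 2. The summed astrocyte markers ran at 2240 to 3090 CPM in 40412, 2110 to 2820 in 40411 and 1630 to 2350 in 39992. In 40411 against 39992, 5 of 5 oligodendrocyte markers lay above 0 and 1 was called, Cnp at 0.23 (SE 0.0441, adjusted p = 0.0107), and 4 of 4 microglia markers lay above 0 with 0 called (unadjusted p below 0.05 for 2). Summed oligodendrocyte markers ran at 18000 to 20300 CPM in 40412, 16800 to 19700 in 40411 and 13500 to 18000 in 39992, and summed microglia markers at 166 to 191 CPM in 40412, 176 to 193 in 40411 and 138 to 174 in 39992. All 5 peripheral nerve and 5 fibroblast markers tested lay below 0 in 40411 against 39992, with 0 called (unadjusted p below 0.05 for 4 and 2), and prefix 39992 holds HOM 3. In 40412 against 40411, 2 of 5 oligodendrocyte and 1 of 4 microglia markers lay above 0, with 0 called (unadjusted p below 0.05 for 0 and 2). There 3 of 4 astrocyte and 7 of 8 neuron markers lay above 0, with 0 called (unadjusted p below 0.05 for 0 and 0). The part of these shifts in the members' values was not tested.

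Immediate early genes, which are induced quickly by neuronal activity, moved with some of the same libraries. Their summed level was 106 to 171 CPM (median 128) in HOM, 124 to 219 (median 150) in HET and 114 to 129 (median 123) in WT libraries, and 123 to 219 CPM in prefix 40412, 106 to 124 in 40411 and 122 to 137 in 39992. HET 3, HET 6 and HOM 10, which had the highest heat shock scores, also had the highest immediate early scores, 0.68, 0.59 and 0.35, whereas WT 6 had -0.12 beside heat shock and ER scores of 0.25 and 0.21. In HET against WT 8 of 8 immediate early genes lay above 0 and 0 were called, with unadjusted p below 0.05 for 5. HOM against HET had 7 of 8 below 0 and 0 called, again with unadjusted p below 0.05 for 5. In 40412 against 40411, 7 of 8 lay above 0 and 2 were called, Egr1 at 0.67 (SE 0.15, adjusted p = 0.0318) and Fos at 0.75 (SE 0.179, adjusted p = 0.0437). Their part in the heat shock values was not tested.

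Across the 22 libraries, after removing the genotype means, members of both groups varied together. Pearson's r of log2 CPM was 0.96 between Hspa1a and Hspa1b (Spearman's rho 0.95), 0.95 between Hspa1a and Dnajb1 (rho 0.90), 0.83 between Hspa1a and Fos (rho 0.86), 0.77 between Hspa1a and Hspa5 (rho 0.80) and 0.69 between Hspa1a and Hsph1 (rho 0.73). Hspa5 gave 0.97 with Manf (rho 0.97), 0.94 with Sdf2l1 (rho 0.94), 0.92 with Pdia4 (rho 0.96), 0.89 with Hsp90b1 (rho 0.91) and 0.81 with Herpud1 (rho 0.79). Of the 14 pairs computed, all had a permutation p at or below 0.0241 for both measures and an adjusted p at or below 0.0241. The smallest p that 100000 permutations can give is 1e-05. The permutations ran over all 22 libraries without regard to the title prefix, so differences between prefixes enter these p-values. Without the 2 libraries farthest from the median, Hspa1a with Hspa5 gave 0.67, Hspa1a with Hsph1 0.54, Hspa1a with Hspb1 0.41 in place of 0.51, and Hspa1a with Hspa8 0.27 in place of 0.51.

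Within single prefixes of 6, 6 and 10 libraries (39992, 40411 and 40412) Hspa5 with Manf gave 0.95, 0.95 and 0.94, and Hspa1a with Hspa1b 0.88, 0.80 and 0.98. Hspa1a with Hspa5 gave 0.63, 0.25 and 0.81, Hspa1a with Hsph1 -0.23, 0.14 and 0.79, and Hspa1a with Hspa8 -0.50, 0.09 and 0.52. Hspa1a with Dnajb1 gave 0.40, 0.90 and 0.99, and Hspa5 with Herpud1 0.29, 0.46 and 0.82. An r from 6 libraries is imprecise, and whether these relations differ between prefixes was not tested. Hsp90aa1 with Hsp90ab1 (0.77 over all libraries) gave 0.82, 0.10 and 0.56, and Hsf1 with Xbp1 (0.73) gave 0.16, 0.31 and 0.53. The median r was 0.64 over the 120 pairs of heat shock members, 0.61 over the 210 pairs of ER members and 0.63 over the 336 pairs between the groups, and 0.41, 0.46 and 0.39 with the prefix means also removed; all libraries share these genes' scaling, and the values are a description. Ern1, at a median r of 0.00 with the other ER members, and Dnajb9, at 0.28, stood aside. Of 16973 genes, 65 (0.38%) had r of at least 0.8 with Hspa5, and these held 7 of 16 heat shock and 13 of 20 ER members. With Hspa1a 32 genes (0.19%) did, and these held 2 of 15 heat shock and 1 of 21 ER members.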

How the data were processed

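Whole spinal cord RNA was extracted with TRIzol and miRNeasy columns, and stranded polyA libraries were sequenced from both ends (per the labels' protocols). The deposited tables give an expected count and a TPM per gene and library. Bowtie2 2.2.0 and RSEM 1.2.12 are named in the submitters' processing notes; the sources used here do not give their roles, the genome build or the annotation. Between 14.41% and 16.23% of the deposited expected counts in a library are not whole, and all were rounded. Gene symbols were matched by ID for 37607 of 38924 genes. Members and gene lists were chosen with earlier results of these data known.

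Genes were filtered with filterByExpr by genotype (16974 tested, 21950 not), scaled by TMM and fitted over all 22 libraries with edgeR 4.0.16 (R 4.3.3), robust quasi-likelihood test, Benjamini-Hochberg adjustment over all genes tested and a call at 0.05. Intervals of 95% use the t quantile on the fit's degrees of freedom. CPM use the scaled library size, and log2 CPM a pseudocount of 0.5. Alternatives were DESeq2 1.42.0, DESeq2 size factors, limma 3.58.1 (voom, and trend on log2 TPM plus 1 or 0.1), no filter, covariates (title prefix, Xist level) and subsets of libraries. The fitting script was tested on simulated data with 200 changed genes. The title prefix was tested as a term after the data had been seen. Values per group, fold change and p are given for fixed members of each role and for the 5 members with the smallest p in each comparison, the rest by range and count; genes of the other lists are named where called or among the 2 with the smallest p, except 1 result that is not reported here. Depth of 24448477 to 42805931 counts per library limits the precision for low genes. No pair of libraries of 1 genotype agreed within counting noise (chi-square per degree of freedom 4.41 to 115.59), so none was counted as 1 library deposited again.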

Additional observations from a re-analysis of the deposited data

Results flagged for a closer look

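In 10 of 111 groups (37 members in 3 genotypes) 1 library lay farther from the others than Dixon's 95% critical value allows, and chance gives about 1 in 20 for separate groups. These groups are not separate, since members share libraries and vary together, and the 10 fall on 4 libraries. All 10 were the highest library of their genotype. HOM 10 had 38.5 CPM of Hspa1a, 48.2 CPM of Hspa1b and 71.8 CPM of Dnajb1, where the next HOM libraries had 17.3, 18.9 and 52.2 CPM. WT 6 had 25.1 CPM of Hspa1a, 28.3 CPM of Hspa1b, 14.7 CPM of Creld2 and 82.2 CPM of Herpud1, where the next WT libraries had 14.2, 12.8, 9.25 and 68.1 CPM. HET 3 had 355.6 CPM of Dnaja1 and 96.9 CPM of Dnajc3, and the next HET libraries had 296.4 and 89.9 CPM. HOM 2 had 409.8 CPM of Hspa4l, and the next HOM library had 367.6 CPM. HOM 10, WT 6 and HET 3 carry title prefix 40412, and HOM 2 carries 39992.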

How the results depend on the processing

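Between genotypes, the count of members called was 0 in each of the 3 comparisons under every alternative run, leaving out each library included. Over all alternatives the heat shock median ran from -0.041 to 0.038 in HOM against WT, 0.0044 to 0.11 in HET against WT and -0.13 to -0.0078 in HOM against HET. In the same comparisons the ER median ran from -0.069 to 0.057, -0.048 to 0.076 and -0.054 to 0.033, and its sign turned under 10, 4 and 7 of 32 alternatives. Changes of sign were looked up only for the members given in full, where the fold change had exceeded its SE. The members given by range and count were not checked. There were 5 cases. Canx in HOM against WT was 0.0035 on log2 TPM with either pseudocount. Hspa1b in HET against WT was -0.019 with the Xist level as a covariate. In HOM against HET, fitted with the title prefix, Hspa1a was 0.0068 and Hsp90ab1 0.018. Counts for the title prefix depended on the setting, and the cause was not tested. The shares of all genes called in these settings are not given here. A change in calls over all genes was therefore not told apart from a change in the members. The 15 members of the test over 3 prefixes became 2 on log2 TPM with either pseudocount, 0 in HOM libraries only, 3 in HOM and WT libraries only and 5 to 20 with 1 library left out. The 17 members of 40412 against 40411 became 2, 0, 5 and 5 to 23 under those settings. The 4 members of 40411 against 39992 became 10 with DESeq2, 0 on log2 TPM with either pseudocount, 2 with no filter, 0 in HOM libraries only, 1 in HOM and WT libraries only and 0 to 7 with 1 library left out. No paired analysis was possible because the replicate numbers follow the order of the libraries and pair nothing across genotypes. Counting error is relatively largest in the members with the fewest counts, which by mean CPM in WT cords were Creld2, Hspa1b, Sdf2l1 and Hspa1a.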
